A study of Arabidopsis thaliana with 24 samples.

Results

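The Virgin Galactic flight (VG) was the suborbital flight of this study that carried seedlings of a pair of Arabidopsis thaliana wild types. The effect described here, called the shared effect, is the mean of the changes in root transcripts of both wild types. A gene can therefore have such an effect from a change in a single wild type. All 12 VG libraries of the 24 libraries of the study were taken, joined by gene identifier. Flight was set against ground with accession as a covariate, 6 libraries against 6.

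Whole roots were sequenced as poly(A) RNA, and the 12 VG libraries form 4 groups of 3: Col-0 flight, Col-0 ground, WS flight and WS ground. Col-0 (Columbia) and WS are laboratory accessions that differ in many inherited variants, and neither carried a transgene or a mutation made for the study. The 12 other libraries come from the Blue Origin flight (BO), with WS and the root-skewing mutant sku5, and share no library with VG. Every VG seedling was 10 days old, was raised on upright sealed plates of Murashige-Skoog medium with sucrose under constant light, and was fixed in RNALater before its roots were cut from the shoot. In flight, black-out cloth surrounded the plates, which rode an air-launched spaceplane. Its ascent peaked near 4.5 g, 3 min of microgravity followed, the descent peaked near 3.5 g, and a glide of about 9 min ended the flight. For VG, the labels give neither where ground plates were kept during the flight nor the time from landing to fixation. Gravity changes, vibration, darkness and handling therefore cannot be told apart. Per the labels, 1 fixation tube supplied all replicates of a group, so p-values here measure only the spread between these samples.

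Ethylene is a gas hormone whose receptors, among them ETR1, ERS1, ETR2, ERS2 and EIN4, keep the pathway shut through the kinase CTR1 when no ethylene is bound. Binding releases EIN2 and stabilises the transcription factor EIN3, while the F-box proteins EBF1 and EBF2 direct EIN3 to degradation. EBF2, ERS1 and ETR2 are themselves known to be transcribed more when the pathway is active, and in roots ethylene restrains elongation and shapes hair formation and bending.

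The deposited unit was FPKM, which divides a gene's fragments by transcript length and by the library's total. Read totals were not given, so the depth of each library is unknown. Between 18269 and 18873 genes reached 1 FPKM per VG library. The 4 annotated ribosomal RNA genes made up 12.6% to 26.8% of the FPKM sum. Replicates of a group correlated, across genes on the log2 scale, at 0.935 to 0.971. Principal components were taken after the difference between accessions was removed. On the first, 17.5% of the remaining variance, 10 libraries lay between -26.6 and 2.75. Replicate 2 of Col-0 flight (58) and replicate 2 of WS flight (43.8) stood apart from them. Values without these 2 libraries, an alternative chosen after seeing the data, are given below for the counts, the called genes and some other genes and lists. Other results below include these 2 libraries, and some list medians not given also moved without them. The sum over 22 photosynthesis genes, markers of carried-over shoot tissue, was 326.8 to 380.1 FPKM in Col-0 flight and 269.1 to 549 in Col-0 ground. In WS that sum was 297 to 450.2 FPKM in flight and 214.1 to 295.3 in ground, with no overlap, and its part in the results was not tested. In such whole-root RNA, fewer cells of a type and less RNA per cell cannot be told apart.

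Across both accessions, 6 of 19937 tested genes were called, 0.0301% of genes, and all 6 were lower in flight. No gene was called higher, and at an unadjusted limma p under 0.05 there were 936 genes lower (4.69%) and 871 higher (4.37%). The called genes were EBF2, the kinase gene SNRK2.9, the hydrolase gene AT5G06570, the immune receptor gene AT4G23510, and AT4G26130 and AT4G35430, whose functions are not given in the annotation. Called means a limma p under 0.05 after Benjamini-Hochberg adjustment over all tested genes, from values as log2(FPKM + 1). Every log2 change below is on that scale, flight minus ground, which understates the change of low genes. The median change over all tested genes was -0.01 and the median standard error 0.18. Changes of at least 1 on the log2 scale were fitted for 82 genes lower and 83 higher in flight. As means of both accessions, these changes and the counts above do not require a change in each accession. The count of called genes rested on single libraries. It was 2 without Col-0 ground replicate 1, WS flight replicate 2 or WS ground replicate 2. It was 3 without Col-0 flight replicate 1 or any of Col-0 ground replicate 3, WS ground replicate 1 and WS ground replicate 3, and 3 without the 2 flight libraries that stood apart. Of the 6 genes, EBF2 alone stayed called without those 2 libraries (-1.03, limma adjusted p = 0.001). The changes of the others were then -0.89 for SNRK2.9, -1.04 for AT4G23510, -0.80 for AT4G26130 and -0.999 for AT5G06570, with limma adjusted p of 0.114 to 0.213, and AT4G35430 had a limma adjusted p of 0.0621.

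EBF2 (AT5G25350), an F-box gene whose product targets EIN3 for degradation, was lower in flight in both accessions by nearly the same amount. Col-0 flight roots had 38.75, 33.05 and 44.99 FPKM, against 85.84, 88.28 and 84.6 FPKM in Col-0 ground roots. In WS, EBF2 had 45.57, 34.59 and 39.17 FPKM in flight roots, against 85.17, 84.11 and 92.04 FPKM in ground roots. No flight library came near a ground library, and the ground libraries of a group lay close together. The means were 38.9 ± 5.97 FPKM in Col-0 flight and 86.2 ± 1.87 in Col-0 ground, and 39.8 ± 5.52 FPKM in WS flight and 87.1 ± 4.31 in WS ground (SD, n = 3 each). EBF2 fell by 1.13 on the log2 scale (SE 0.09, 95% interval -1.33 to -0.93, limma adjusted p = 0.000212, lower in 6 of 6 flight libraries). The change was -1.14 in Col-0 and -1.12 in WS. EBF2 was the only gene of the 6 called under each of the 22 alternatives tried on the shared effect, with changes of -1.18 to -1.03 and limma adjusted p of 0.000122 to 0.00959. With 3 libraries against 3 it was called in neither accession alone (limma adjusted p = 0.113 in Col-0 and 0.162 in WS). A pair of other genes overlaps EBF2 on the opposite strand, and whether counting used strand is not given in the sources used here.

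**Figure D1:**
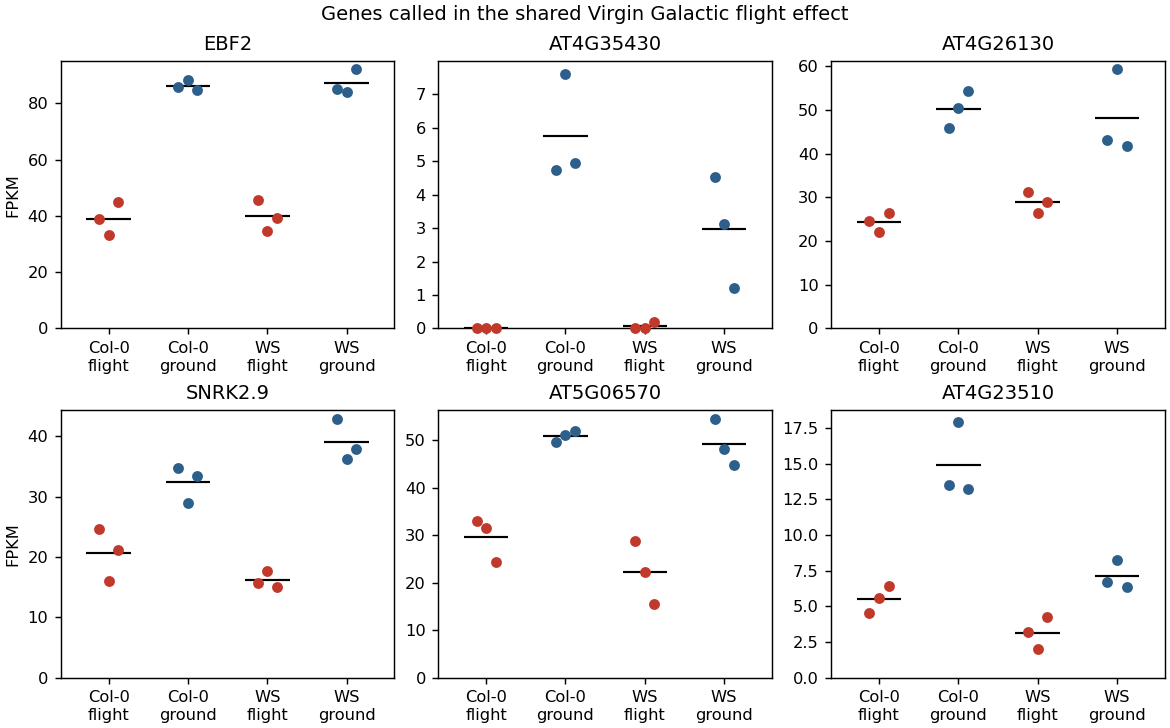
FPKM per library of the 6 genes called in the shared flight effect, 1 panel a gene, with flight left of ground in Col-0 and in WS; points are libraries and lines are group means (n = 3). In all 6 panels the 3 flight libraries lie below the 3 ground libraries of the same accession, and EBF2 has 33.05 to 45.57 FPKM in flight against 84.11 to 92.04 in ground.

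SNRK2.9 (AT2G23030) encodes a kinase of the SnRK2 family, several of whose members act in abscisic acid and osmotic stress signalling. It had 24.63, 16.01 and 21.11 FPKM in Col-0 flight, against 34.81, 29.01 and 33.47 in Col-0 ground. In WS, SNRK2.9 had 15.74, 17.63 and 15.03 FPKM in flight roots, against 42.92, 36.23 and 37.85 in ground roots. The flight and ground libraries of each accession did not overlap, and the gap was wider in WS. SNRK2.9 fell by 0.93 (SE 0.14, limma adjusted p = 0.0413), with changes of -0.65 in Col-0 and -1.22 in WS. The difference between accessions, 0.58, had an unadjusted limma p of 0.0297 and an adjusted p of 0.935. The call was lost when any of 9 libraries was left out, that is every one except Col-0 flight replicates 1 and 3 and Col-0 ground replicate 2, with changes of -0.96 to -0.87 and limma adjusted p of 0.0706 to 0.135.

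AT5G06570, listed in the files as CXE15, belongs to the alpha/beta-hydrolases, an enzyme family that cleaves small ester-like substrates. It had 32.93, 31.53 and 24.32 FPKM in Col-0 flight, against 49.76, 51.2 and 52 in Col-0 ground. In WS, AT5G06570 had 28.88, 22.36 and 15.5 FPKM in flight roots, against 54.45, 48.23 and 44.79 in ground roots. All flight libraries lay below the ground libraries of their accession. AT5G06570 fell by 0.96 (SE 0.14, limma adjusted p = 0.0413), with changes of -0.78 in Col-0 and -1.15 in WS. The call held without WS flight replicate 1 or 3, and was lost without any 1 of the 10 other libraries (changes of -1.02 to -0.91, limma adjusted p of 0.051 to 0.134).

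AT4G26130 is annotated as a cotton fiber protein, a family named from cotton. Col-0 flight roots had 24.56, 22.02 and 26.35 FPKM, against 45.89, 50.45 and 54.3 in Col-0 ground roots. In WS, AT4G26130 had 31.34, 26.44 and 28.92 FPKM in flight roots, against 43.15, 59.37 and 41.78 in ground roots. In neither accession did a flight library reach a ground library. AT4G26130 fell by 0.86 (SE 0.11, limma adjusted p = 0.0196), by 1.02 in Col-0 and 0.70 in WS. Its call was lost without Col-0 flight replicate 1, any Col-0 ground replicate, WS flight replicate 2 or WS ground replicate 2 (changes of -0.87 to -0.81, limma adjusted p of 0.051 to 0.0724).

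AT4G23510 encodes a receptor of the TIR-NBS-LRR class, proteins that sense pathogen effectors inside the cell. Of the called genes above 0 in every library it had the lowest level, with 4.52, 5.55 and 6.46 FPKM in Col-0 flight against 13.51, 17.97 and 13.25 in Col-0 ground. In WS, AT4G23510 had 3.21, 1.97 and 4.26 FPKM in flight roots, against 6.74, 8.24 and 6.39 in ground roots. Flight and ground did not overlap within an accession. AT4G23510 fell by 1.14 (SE 0.17, limma adjusted p = 0.0448), by 1.29 in Col-0 and 1.00 in WS. This call was the least stable: it held without WS flight replicate 3 and was lost without any 1 of the 11 other libraries (changes of -1.19 to -1.06, limma adjusted p of 0.0643 to 0.134).

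AT4G35430, an uncharacterized gene, was listed at 0 in all 3 Col-0 flight libraries, against 4.74, 7.61 and 4.94 FPKM in Col-0 ground. In WS flight it was listed at 0, 0 and 0.18 FPKM, against 4.54, 3.13 and 1.21 in WS ground. Its limma adjusted p was 0.0087, and no fold is given against a group listed at 0. In the reference annotation, all of its 50-base words also occur in AT4G35440, which overlaps it on the same strand. Its value therefore depends on how fragments were divided between the pair and is uncertain. Leaving out any single library did not end its call, but leaving out the 2 flight libraries that stood apart did (limma adjusted p = 0.0621).

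How far the accessions shared a response was also read from separate fits of Col-0 and WS, which have no library in common. Over 18084 genes tested in both, the Col-0 and WS log2 changes correlated weakly across genes (Pearson r 0.126, Spearman rho 0.134), and 55.5% of genes had the same sign. Genes are not independent replicates, and each library's composition enters all its genes. At an unadjusted limma p under 0.05 there were 882 of these genes in Col-0 and 1606 in WS. Both sets held 118 genes, 13.4% of the Col-0 set and 7.35% of the WS set. The first share is to be read against 1606 of 18084 genes in the WS set. The second is to be read against 882 of 18084 in the Col-0 set. Of the 118, 96 had the same sign, with 65 lower and 31 higher in flight. Of the Col-0 set, 65.3% had the same sign in WS, and of the WS set 64% had the same sign in Col-0.

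Complete separation within each accession gave a second description. In 122 genes (0.612% of those tested) the 3 flight libraries lay below the 3 ground libraries in both accessions, with a median change of -0.47. In 107 genes (0.537%) they lay above in both, with a median of 0.395. Of these genes, 10 lower and 4 higher ones changed by at least 1 on the log2 scale, and the 6 called genes were all among the 122.

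**Figure D2:**
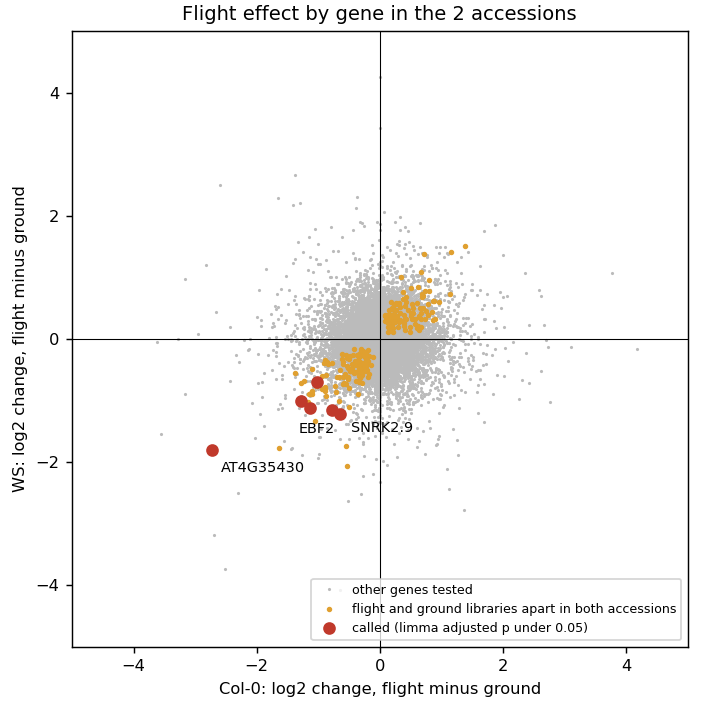
Log2 change, flight minus ground, of each tested gene in Col-0 (horizontal axis) and in WS (vertical axis), on the log2(FPKM + 1) scale; red points are the 6 called genes and orange points are genes whose flight and ground libraries did not overlap in either accession and lay on the same side. The cloud is round about 0 (Pearson r 0.126 over the 18084 genes tested in both accessions alone), and the called genes lie at its lower left.

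No gene differed between the accessions in its flight effect at an adjusted p under 0.05 (0 of 19937, 0%). At an unadjusted limma p under 0.05, 1024 genes did. The genes with the smallest p, named after their values were seen, were each listed at 0 throughout some groups. AT1G61280, annotated as a subunit of the enzyme that starts GPI anchor synthesis, was listed at 0 in all Col-0 flight libraries, against 8.5, 10.86 and 15.48 FPKM in Col-0 ground. In WS it had 4.85, 3.74 and 9.67 FPKM in flight, against 7.33, 3.96 and 6.95 in ground, and its interaction had a limma adjusted p of 0.0715. AT3G06895 was listed at 0 in every Col-0 library and had 7.55, 27.05 and 28.39 FPKM in WS flight, against 0 in all 3 WS ground libraries (limma adjusted p = 0.0715). AT3G06895 shares 38.6% of its 50-base words with AT1G49245, so its value is uncertain. AT1G61280 shares 0% of its words with another gene but overlaps AT1G61290 on the same strand. The interaction was called for 1 gene without Col-0 flight replicate 3 and for 2 genes without Col-0 ground replicate 2.

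Fitted alone, each accession had 1 called gene. In Col-0 it was AT1G61280 (limma adjusted p = 0.0406, 1 of 18703 genes tested). In WS it was AT2G05230, annotated with a DNAJ heat shock domain, which had no FPKM in any WS flight library, against 12.23, 18.35 and 8.14 in WS ground (limma adjusted p = 0.0354, 1 of 19002). AT2G05230 shares 96.4% of its 50-base words with AT2G05250, and in Col-0 it was listed at 0, 0 and 0.73 FPKM in flight and at 11.87, 24.02 and 0 in ground.

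The authors' deposited tables list 13 changed genes for Col-0 (3 higher and 10 lower in flight) and 57 for WS (29 higher and 28 lower). Only EBF2 is in both of the authors' deposited tables, with a log2 fold change of -1.145 (SE 0.134) in Col-0 and -1.133 (SE 0.19) in WS. In the authors' deposited table the p-value of EBF2 is 1.45e-13 for Col-0 and 3.4e-06 for WS. All 13 Col-0 genes could be tested here, 9 had the same sign in WS, and 4 of these had an unadjusted limma p under 0.05 there: EBF2, AT4G26130, PYL6 and AT4G23510. Of the 57 WS genes, 36 could be tested, 19 had the same sign in Col-0, and EBF2 and AT2G36690 had an unadjusted limma p under 0.05 there. At least 3 of the 6 libraries were listed at 0 for 4 of the 13 Col-0 genes and 23 of the 57 WS genes. Fold changes of more than 4 on the log2 scale stand in the authors' deposited tables for 7 of the 13 and 31 of the 57.

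EBF2 was the single called member of the ethylene list, and no other pathway list had a called member. Of 13 tested ethylene genes, 3 were lower at an unadjusted limma p under 0.05 (EBF2, ERS1 and ACS2) and 1 was higher (ACS7), beside 4.69% lower and 4.37% higher over all tested genes. In both accessions, 8 members were lower and 2 were higher. The list's median change was -0.16 (-0.08 in Col-0 and -0.18 in WS), and -0.09 without the 2 flight libraries that stood apart, beside -0.01 over all genes.

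Among the receptors, ERS1 (AT2G40940) had the smallest p. It had 37.53, 39.39 and 30.22 FPKM in Col-0 flight, against 56.29, 57.4 and 57.53 in Col-0 ground. In WS, ERS1 had 48.8, 44.47 and 31.17 FPKM in flight roots, against 56.1, 59.45 and 74.72 in ground roots. In both accessions the flight libraries lay below the ground libraries, yet the change of -0.64 (SE 0.12) was not called (limma adjusted p = 0.138). ETR2, a receptor kept in the hypoxia list here and chosen for its values, was lower in every flight library than in any ground library of its accession. It had 3.29, 3.2 and 3.86 FPKM in Col-0 flight, against 6.07, 5.81 and 4.16 in Col-0 ground. In WS, ETR2 had 3.45, 3.25 and 5.61 FPKM in flight roots, against 9.23, 10.58 and 9.56 in ground roots. The change of ETR2 was -0.80 (SE 0.18, limma adjusted p = 0.262). In the authors' deposited table for WS, ETR2 has a log2 fold change of -1.247 and a p-value of 0.00606. The other receptors had smaller changes that were not called: -0.16 for ERS2, and, named after their values were seen, -0.16 for ETR1 and -0.22 for EIN4. ETR1 had -0.34 in Col-0 and 0.02 in WS, and EIN4 had -0.38 in Col-0 and -0.06 in WS. RTE1, which acts with ETR1, also named after its values were seen, had a change of -0.48 that was not called (limma adjusted p = 0.667).

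Downstream of the receptors, no gene other than EBF2 was called. The kinase gene CTR1 had a change of -0.22, the transcription factor gene EIN3 of -0.10, and EIN2, named after its values were seen, of -0.11. EBF1, the partner of EBF2, had a change of -0.22, made of 0.00 in Col-0 and -0.44 in WS. Ethylene synthesis genes went in several directions. ACS7, an ACC synthase gene, had 6.4, 4.29 and 4.28 FPKM in Col-0 flight against 1.16, 1.98 and 1.37 in Col-0 ground, and 3.05, 0.69 and 4.27 in WS flight against 1.17, 1.22 and 2.13 in WS ground. The groups overlapped in WS, and the change of 0.84 was not called (limma adjusted p = 0.438). ACS2 had a change of -0.81 (limma adjusted p = 0.465). ACS6 had 0.15, ACS11 0.07, and the ACC oxidase gene EFE -0.12. ARGOS, an ethylene-induced gene that lowers sensitivity to the hormone, had a change of -0.48.

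**Figure D3:**
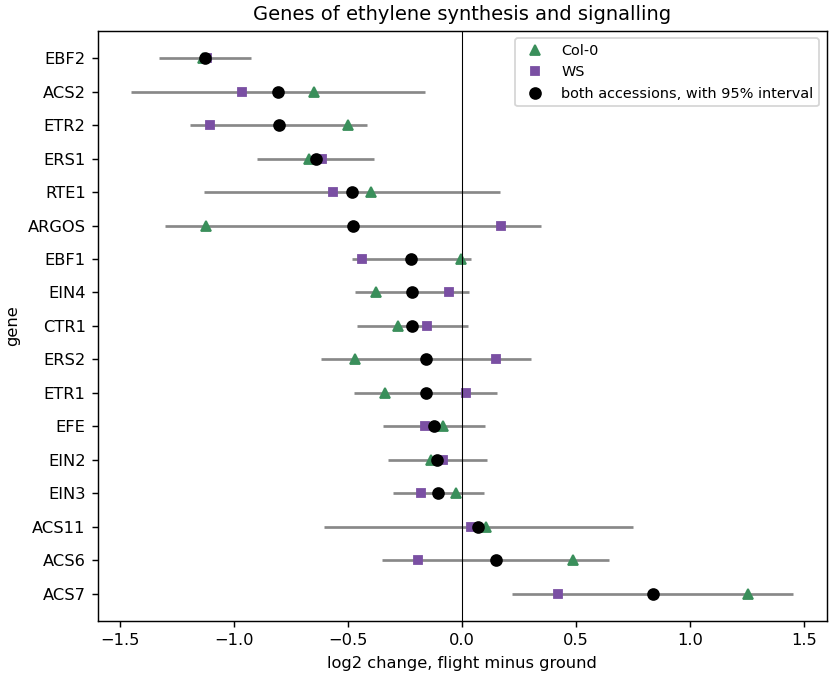
Log2 change, flight minus ground, of 17 ethylene genes on the log2(FPKM + 1) scale; black points are the shared effect with its 95% interval from limma, triangles Col-0 and squares WS. EBF2 (-1.13), ERS1 (-0.64) and ETR2 (-0.80) lie left of 0 in both accessions, and ACS7 (0.84) lies right of it.

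Close to the threshold stood several other hormone genes. ORA59 (AT1G06160), a transcription factor gene of the joint ethylene and jasmonate response, had 0.24, 2.64 and 0.36 FPKM in Col-0 flight, against 4.64, 4.4 and 5.16 in Col-0 ground. In WS, ORA59 had 1.22, 0 and 0.77 FPKM in flight roots, against 3.21, 5.69 and 4.47 in ground roots. No flight library overlapped a ground library, and the change was -1.70 (SE 0.29, limma adjusted p = 0.0857). ORA59 was called when Col-0 flight replicate 2 was left out (-1.93, limma adjusted p = 0.0261) and when both flight libraries that stood apart were (-1.79, limma adjusted p = 0.0369). PYL6, a receptor of abscisic acid, had 46.84, 57.22 and 67.16 FPKM in Col-0 flight, against 124.7, 120.11 and 133.26 in Col-0 ground. In WS, PYL6 had 80.22, 53.24 and 137.63 FPKM in flight roots, against 155.31, 171.53 and 146.71 in ground roots. WS flight replicate 3 lay near the ground libraries. The change of PYL6 was -1.02 (limma adjusted p = 0.092), and it was called without that library (-1.19, limma adjusted p = 0.00247).

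Further genes among those with the smallest p on the lower side were not called. BT1, a nitrate-responsive BTB and TAZ domain gene, had 290.09, 164.46 and 287.9 FPKM in Col-0 flight, against 465.79, 364.13 and 516.55 in Col-0 ground. In WS, BT1 had 227.48, 147.35 and 221.08 FPKM in flight roots, against 358.87, 281.08 and 427.23 in ground roots. Flight and ground did not overlap within an accession, and the second replicate was the lowest of its group in all 4 groups. The change of BT1 was -0.87 (SE 0.17, limma adjusted p = 0.156). AT1G15670, a kelch-repeat F-box gene, had a change of -0.60 (limma adjusted p = 0.138). AT1G11185, listed as another kind of RNA, had -0.85, and the uncharacterized AT4G29905 had -0.50 (limma adjusted p = 0.0857 for each). AT5G40590, of the C1 domain family, had a change of -0.89, and AT5G57887, which shares 59.6% of its words with AT5G57880, of -0.64.

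No gene rose past the threshold, and a higher gene was called under 4 of the 22 alternatives. These, some named after their values were seen, were AT2G21188 without Col-0 flight replicate 3 (limma adjusted p = 0.0109), ABCI21 without WS flight replicate 1 (0.0432), AT2G44383 without the 2 flight libraries that stood apart (0.00736) and AT3G06895 in the mean effect of the interaction model (0.0238). Several genes without a call were higher in all 6 flight libraries than in the ground libraries of their accession. AT4G27840, a SNARE-like gene, had 26.1, 38.06 and 27.12 FPKM in Col-0 flight, against 16.13, 20.47 and 18.14 in Col-0 ground. In WS, AT4G27840 had 27.66, 26.53 and 22.37 FPKM in flight roots, against 14.71, 16.38 and 15.28 in ground roots. Its change of 0.69 had the smallest p among genes higher in flight (limma adjusted p = 0.0857). MYB36, the transcription factor that directs formation of the Casparian strip in the endodermis, had 14.91, 16.5 and 17.81 FPKM in Col-0 flight, against 9.94, 6.95 and 13.19 in Col-0 ground. In WS, MYB36 had 15.91, 17.07 and 15.91 FPKM in flight roots, against 12.31, 8.43 and 8.49 in ground roots. MYB36 did not overlap between flight and ground, and its change was 0.70 (limma adjusted p = 0.246). MIPS1, which makes inositol phosphate from glucose phosphate, had a change of 0.48 (limma adjusted p = 0.138). Larger changes without a call were 1.05 for AT3G15900, annotated as a homoserine acetyltransferase, 1.44 for the uncharacterized AT3G13404 and 1.29 for AT4G29610 of the cytidine deaminase family. AT3G13404 overlaps AT3G13403 and AT3G13405 on the same strand, and AT4G29610 was at or under 3.92 FPKM in every VG library. The changes were 0.79 for the ferredoxin gene FD1, 0.87 for AT1G76240 and 0.79 for AT5G62130. ABCI21, with a change of 0.69, overlapped between flight and ground in WS.

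The 26 pathway lists held 473 tested members. At an unadjusted limma p under 0.05, 31 members were lower, EBF2 included, and 48 were higher, beside 4.69% lower and 4.37% higher over all tested genes. EBF2 alone was called, so the 25 other lists are described by their counts and medians only, to be read against those shares. Lists were chosen for roots under stress, darkness, altered gravity and altered nutrition, with earlier results of these data known. Their counts are therefore not independent of that choice.

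Genes of cold, drought and abscisic acid had the highest list median. Of 21 tested members, 0 were called in limma, 7 were higher and 1 lower at an unadjusted p under 0.05, and 16 were higher in both accessions (76.2%, beside 25.1% of all genes). The list median was 0.45 (0.51 in Col-0 and 0.41 in WS), and 0.12 without the 2 flight libraries that stood apart. HAI1, a phosphatase gene induced by abscisic acid, had 21.22, 20.28 and 10.56 FPKM in Col-0 flight, against 7.52, 6.22 and 6.73 in Col-0 ground. In WS, HAI1 had 38.18, 43.92 and 21.19 FPKM in flight roots, against 28.5, 12.45 and 24.74 in ground roots. HAI1 overlapped between flight and ground in WS only, and its change of 0.91 was not called (limma adjusted p = 0.351). The other 6 were CYP707A1, which breaks down abscisic acid (0.91), the homeodomain gene HB-12 (0.88), the dehydrin genes ERD10 (0.56) and LTI30 (0.48), the desiccation gene LTI78 (1.32) and the proline synthesis gene P5CS1 (0.35). GolS1, for galactinol synthesis, had a change of -0.36. Read per library as a median against the mean of the ground libraries, the list was 0.55, 0.78 and 0.24 in Col-0 flight against 0.13, -0.11 and -0.01 in Col-0 ground. In WS it was 0.23, 1.22 and -0.22 in flight against 0.06, -0.30 and 0.17 in ground. The highest of all was WS flight replicate 2, and WS flight replicate 3 lay among the ground libraries.

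The dark and sugar starvation list, genes that roots and leaves switch on when carbon runs short, had the lowest list median. Of 29 tested members, 0 were called in limma, 0 were higher and 7 lower at an unadjusted p under 0.05, and 20 were lower in both accessions (69%, beside 29.4% of all genes). The list median was -0.24 (-0.19 in Col-0 and -0.335 in WS), and -0.08 without the 2 flight libraries that stood apart. ATL8, a RING finger gene, had 58.91, 35.75 and 48.95 FPKM in Col-0 flight, against 82.38, 87.49 and 95.46 in Col-0 ground. In WS, ATL8 had 60.16, 36.86 and 63.51 FPKM in flight roots, against 120.62, 60.58 and 149.5 in ground roots. Flight and ground overlapped in WS only, and the change of ATL8 was -0.94 (SE 0.20, limma adjusted p = 0.254). The 6 others were the glutamate dehydrogenase gene GDH2 (-0.36), the raffinose synthase gene DIN10 (-0.63), TPS10 (-0.37), the asparaginase gene ASPGB1 (-0.43), the transcription factor gene BZO2H3 (-0.42) and the sugar transporter gene STP1 (-0.31). SEN1, a widely used marker of darkness and senescence, had a change of -0.50. ASN1, an asparagine synthase gene induced by darkness, had one of 0.29, made of -0.24 in Col-0 and 0.81 in WS. In WS, ASN1 had 3.95, 12.51 and 1.61 FPKM in flight roots, against 1.64, 1.68 and 3.61 in ground roots. Per library the list was -0.05, -0.45 and 0.00 in Col-0 flight against 0.09, -0.22 and 0.09 in Col-0 ground. In WS it was -0.13, -0.56 and -0.31 in flight against 0.10, -0.31 and 0.28 in ground. Replicate 2 was the lowest library of its group in all 4 groups.

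**Figure D4:**
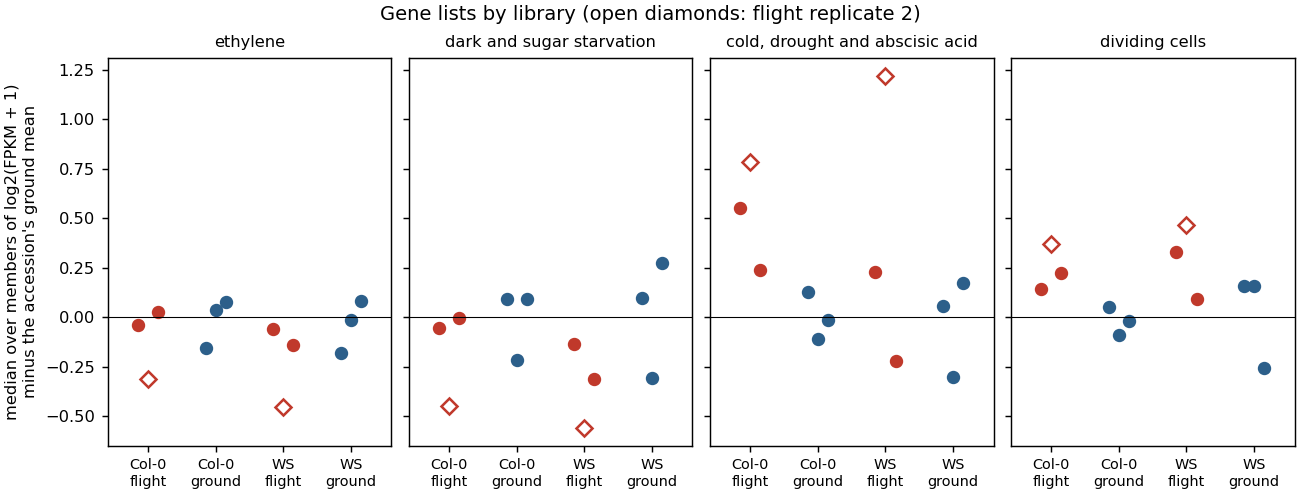
Median over list members of each library's log2(FPKM + 1) minus the mean of the ground libraries of its accession, for the ethylene, dark and sugar starvation, abscisic acid and dividing cell lists, with flight left of ground in Col-0 and in WS; open diamonds are the flight libraries that stood apart. The open diamonds are the highest flight values of the abscisic acid list (0.78 in Col-0 and 1.22 in WS) and the lowest of the starvation list (-0.45 and -0.56).

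Markers of dividing cells were higher in flight in both accessions for 11 of 14 members, 78.6% beside 25.1% of all genes, and lower in both for 0. None was called in limma, and 2 were higher at an unadjusted p under 0.05: SYP111, the syntaxin of the forming cell plate (0.38), and the cyclin gene CYCB2;1 (0.72). The list median was 0.21 (0.12 in Col-0 and 0.27 in WS), and 0.16 without the 2 flight libraries that stood apart. SYP111 had 27.39, 32.77 and 24.12 FPKM in Col-0 flight against 23.77, 27.76 and 25.4 in Col-0 ground, and 42.1, 54.84 and 38.82 in WS flight against 29.83, 35.27 and 21.26 in WS ground. The groups overlapped in Col-0 and not in WS. Genes of protein folding in the endoplasmic reticulum had a list median of 0.20 (0.01 in Col-0 and 0.43 in WS), and 0.09 without the 2 libraries. Of 17 tested, 0 were called in limma and 4 were higher at an unadjusted p under 0.05: the calreticulin gene CRT1b (0.50), the HSP90 gene SHD, the disulfide isomerase gene PDIL1-1 and the cochaperone gene ATERDJ3B.

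Genes of touch and calcium showed no called member. TCH2, a calmodulin-like gene known to respond to touch, had 79.68, 50.74 and 34.01 FPKM in Col-0 flight, against 21.54, 27.97 and 20.05 in Col-0 ground. In WS, TCH2 had 35.2, 57.65 and 25.62 FPKM in flight roots, against 25.9, 37.21 and 23.94 in ground roots. The groups were apart in Col-0 and overlapped in WS, and the change was 0.76 (SE 0.24, limma adjusted p = 0.412). TCH4, a xyloglucan-modifying enzyme gene, had a change of 1.2 (limma adjusted p = 0.438). It had 72.81 FPKM in Col-0 flight replicate 1 and between 3.28 and 15.96 in the other VG libraries. TCH3 had a change of -0.15. Over the 16 members tested, 2 were higher and 0 lower at an unadjusted limma p under 0.05, and the list median was 0.03, or 0.185 without the 2 libraries that stood apart.

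Clock genes were split. Of 23 tested, 4 were higher and 4 lower at an unadjusted limma p under 0.05, and 0 were called. PCL1 (LUX), of the evening complex, had 16.54, 9.42 and 16.12 FPKM in Col-0 flight, against 7.93, 7.21 and 6.38 in Col-0 ground, and 7.39, 9.8 and 9.86 in WS flight, against 7.24, 6.46 and 5.45 in WS ground. RVE2 had 589.63, 628.01 and 572.99 FPKM in Col-0 flight, against 756, 674.35 and 813.96 in Col-0 ground, and 449.73, 450.99 and 379.07 in WS flight, against 593.52, 492.74 and 692.64 in WS ground. PCL1 was higher and RVE2 lower in every flight library than in the ground libraries of its accession, with changes of 0.64 and -0.39. The morning genes CCA1 and LHY had changes of 0.52 and 0.39, CDF1 of 0.71, and ELF4, PRR5 and ZTL of -0.57, -0.48 and -0.31.

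In the other pathway lists, the members named here are among those at an unadjusted limma p under 0.05. Among cell wall genes, 4 of 35 were higher, all xyloglucan-modifying enzymes (XTH19 with a change of 1.08, XTH18, XTH17 and XTH4), and 2 were lower (EXPA4, an expansin, -0.52, and GH9A1, -0.14). For XTH19, WS flight roots had 93.13, 96.98 and 58.06 FPKM against 20.81, 38.24 and 11.29 in WS ground, while Col-0 flight roots, at 27.29, 53.14 and 17.37, overlapped Col-0 ground, at 27.81, 21.96 and 24.12. Among light genes, the transcription factor genes HY5 (0.44) and HYH (0.47) were higher and BBX21 (-0.30) lower. In the hypoxia list, ERF73 (-0.59), a transcription factor gene induced by low oxygen, was lower beside ETR2, and LBD41 (0.63) was higher. ERF73 had 68.38, 53.7 and 70.77 FPKM in Col-0 flight against 89.39, 93.97 and 102.84 in Col-0 ground, and 58.11, 47.95 and 97.63 in WS flight against 96.27, 90.51 and 111.97 in WS ground, with overlap in WS. In the iron list, 2 of 21 were higher and 1 lower, and in the aquaporin list 2 of 18 were higher and 0 lower. Of these, FER1, which encodes an iron-storing ferritin, had a change of 0.42, and the aquaporin gene PIP3 one of 0.28. Neither overlapped between flight and ground in either accession, as held for 0.537% of all genes on the higher side. The early stress and jasmonate lists also held 1 such member each. In the defence list, 3 of 14 were lower and 0 higher: PEN3, CYP71A13 and CYP71A12, of which the CYP71A genes act in camalexin and related synthesis. The median of the defence list was -0.14, and 0.02 without the 2 flight libraries that stood apart.

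Heat shock, oxygen and pigment markers were not called. The changes were 0.45 for the chaperone gene HSP101 and -0.26 for HSP90.1, 0.36 for the fermentation gene ADH1, and 0.48 for the chalcone synthase gene TT4, which had 1.04 in Col-0 and -0.09 in WS. The auxin efflux gene EIR1 (PIN2), which root gravitropism needs, had a change of 0.43, and SKU5, the gene whose loss makes roots skew, one of 0.27. The 18 heat shock genes had 0 members at an unadjusted limma p under 0.05 in either direction and 0 called.

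The VG effect was set against the flight effect of the BO libraries in 1 fit of all 24 libraries. Of 20614 tested genes, the VG effect was higher than the BO effect for 1676 (8.13%) and lower for 1542 (7.48%) at a limma adjusted p under 0.05. The flights share no control library. They differ in vehicle, year, site, seedling age and growth conditions, and 6 of the 12 BO libraries are sku5, so these cannot be told apart. Of the 6 called VG genes, 3 differed. These 6 genes, and ERS1 below, were chosen by their VG effect, so the difference is not independent of that choice.

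EBF2 was on opposite sides of 0 in the flights. In WS it had 61.12, 63.63 and 65.08 FPKM in BO flight against 34.61, 49.01 and 41.22 in BO ground, and in sku5 63.62, 55.19 and 48.88 in BO flight against 42.08, 46.3 and 26.77 in BO ground. BO flight libraries lay above the BO ground libraries of the same line, the reverse of VG. The VG change of -1.13 and the BO change of 0.58 differed by -1.71 (SE 0.17, limma adjusted p = 2.45e-06). The other 2 that differed were AT5G06570, with a VG change of -0.96 and a BO change of 1.37 (difference -2.33, limma adjusted p = 4.02e-05), and AT4G35430, listed at 0 in 5 of the 12 BO libraries and uncertain as above (limma adjusted p = 0.02). ERS1 went the same way as EBF2, with a VG change of -0.64 and a BO change of 0.48 (difference -1.12, limma adjusted p = 4.13e-05).

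AT4G26130 had nearly equal changes on both flights, -0.86 at VG and -0.87 at BO (difference 0.01, SE 0.20, limma adjusted p = 0.983). AT4G23510 had -1.14 at VG and -0.83 at BO (difference -0.32, limma adjusted p = 0.451). A p that misses the threshold does not show equal responses. SNRK2.9 had -0.93 at VG and 0.26 at BO, with values from 1.78 to 25.2 FPKM in BO flight libraries.

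List medians at VG and BO are set side by side here, with counts of members whose effects differed, to be read against 8.13% (VG higher) and 7.48% (VG lower) of all tested genes. In the dark and sugar starvation list, the VG effect was lower than the BO effect for 23 of 29 members and higher for 2, with list medians of -0.24 at VG and 1.68 at BO. Flavonoid genes had medians of 0.14 at VG (0.48 in Col-0 and -0.095 in WS) and -2.15 at BO, with the VG effect higher for 10 of 13. Genes of folding in the endoplasmic reticulum had medians of 0.20 at VG and -0.56 at BO, with the VG effect higher for 11 of 17. Aquaporin genes, membrane water channels, had medians of 0.11 at VG and 0.76 at BO, with the VG effect lower for 10 of 18. The abscisic acid list had medians of 0.45 at VG, or 0.12 without the 2 flight libraries that stood apart, and 0.11 at BO, and the VG effect was higher for 3 of 21 and lower for 1. The ethylene list had medians of -0.16 at VG and -0.05 at BO, and the VG effect was lower for 3 of 13, EBF2, ERS1 and EIN3, and higher for 1, ACS7.

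**Figure D5:**
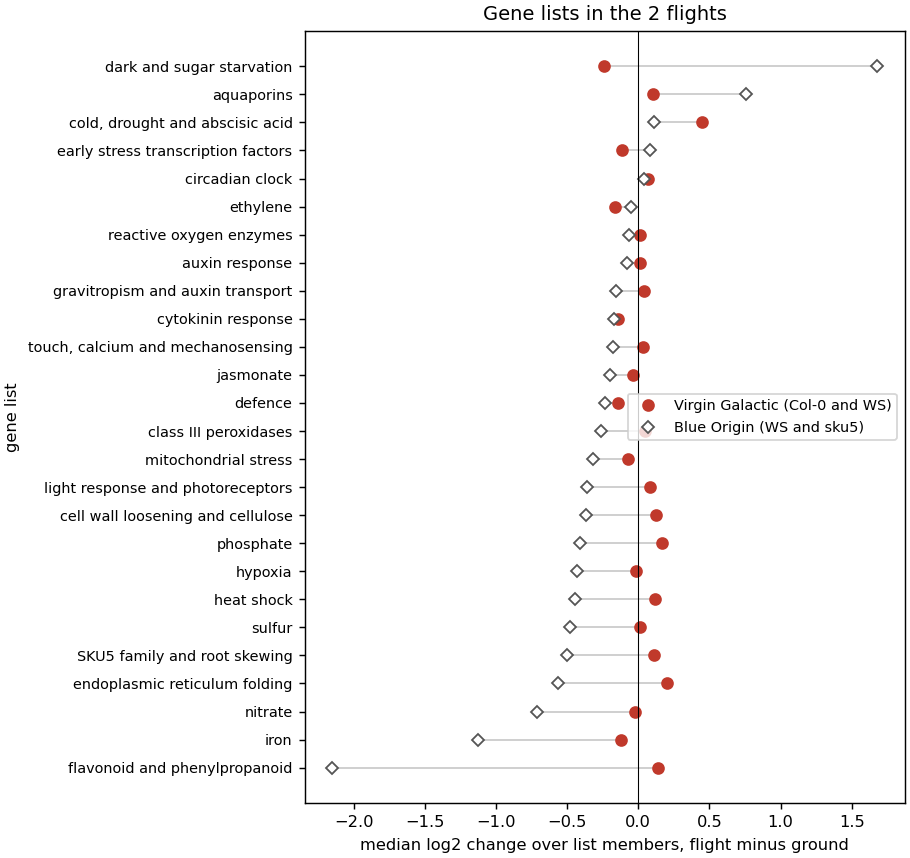
Median log2 change, flight minus ground, over the members of 26 pathway lists, filled red points for VG and open diamonds for BO. The VG medians run from -0.24 to 0.45, while the BO medians run from -2.15 for flavonoid genes to 1.68 for dark and sugar starvation.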

How the data were processed

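Values are FPKM per gene in 2 deposited tables, 1 with the 6 Col-0 libraries (33469 genes) and 1 with the WS and sku5 libraries (32844 genes). The unit was read from the values. Per the submitters' processing notes, the authors used Trimmomatic 0.36, FastQC 0.11.4, MultiQC 1.1, STAR 2.7.3a, RSEM 1.2.31 and DESeq2. Which genome build, annotation and strand setting the counting used is not given in the sources. Lists of changed genes by the authors hold a log2 fold change with its standard error, a p-value and a mean normalized signal, named so per the file headers. The p-value the authors deposited appears from its size to be adjusted, which the header does not say.

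The tables were joined by gene identifier (32844 genes shared). Values were taken as log2(FPKM + 1), with genes kept at 1 FPKM or more in at least 3 of the libraries of a fit. limma 3.58.1 with a mean-variance trend in R 4.3.3 fitted flight with accession as a covariate over the 12 VG libraries (9 residual degrees of freedom). The interaction (8 residual degrees of freedom) and, over 24 libraries, the difference of the VG and BO effects (16 residual degrees of freedom) were fitted apart. Since accession and table coincide, levels were not compared across tables. Tests were two-sided, with Benjamini-Hochberg adjustment over all genes of a comparison, and the fits were tested on simulated data. No step between read counts was found in the values, so the depth of each library is unknown and no count test was run. The design had also planned for counts. Other work used Python 3.11.15, numpy 2.4.6, pandas 2.3.3 and matplotlib 3.10.9.

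The members, the 26 pathway and 8 tissue lists, and the rules were chosen with earlier results of these data known. Named were all called genes, since under 10 were called, with the 10 genes in each direction that had the smallest p without a call. Also named were the 5 called genes with the largest difference of VG and BO effects in each direction, among genes with a symbol in the reference. Genes in both of the authors' lists and a fixed set of stress, clock and gravitropism genes were named too. Other list members were named after their values were seen, mostly at an unadjusted p under 0.05. Of 642 list members, 13 were left out because the reference gives their identifier another name. Overlaps and shared 50-base words come from RefSeq's annotation of TAIR10.1, which may differ from the authors'. Alternatives changed the pseudocount, filter, scaling, trend, block and libraries. The value of 1 list member is not reported here.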

Additional observations from a re-analysis of the deposited data

Results flagged for a closer look

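The genes below are the named genes whose VG and BO flight effects differed in the fit of all 24 libraries, by a test of the difference itself at a limma adjusted p under 0.05. Vehicle, year, site, age, growth conditions and line change together between the flights and cannot be told apart.

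Genes of carbon starvation differed with the VG effect lower. The darkness marker SEN1 had a VG change of -0.50 and a BO change of 4.94 (difference -5.44, limma adjusted p = 2.45e-06). It had 55.52, 40.04 and 71.71 FPKM in Col-0 VG flight, against 90.83, 45.24 and 99.87 in Col-0 VG ground, and in BO it was between 133.1 and 387.8 FPKM in flight, against 2.27 to 18.77 in ground. The same held for the RING finger gene ATL8 (-4.14, with changes of -0.94 at VG and 3.21 at BO), the branched-chain amino acid transaminase gene BCAT-2 (-3.76), the asparaginase gene ASPGB1 (-3.69) and the sugar exporter gene SWEET12 (-3.63, with changes of -0.07 at VG and 3.56 at BO).

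Among the genes called at VG, the differences were -1.71 for EBF2, -2.33 for AT5G06570 and -2.41 for AT4G35430, a fitted value that depends on the pseudocount because the gene is listed at 0 in most VG flight libraries. Since these genes were called by their VG effect, the differences are not independent of that choice. The calmodulin-like gene TCH3 differed by -1.19 (VG -0.15, BO 1.03).

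Flavonoid and light genes differed with the VG effect higher. The chalcone synthase gene TT4 differed by 4.63 (VG 0.48, BO -4.16), the chalcone isomerase gene TT5 by 4.71 (VG 1.00, BO -3.71), the flavonol synthase gene FLS1 by 4.58 (VG 0.41, BO -4.18) and the light stress gene ELIP1 by 4.77 (VG 0.66, BO -4.11). Heat shock genes HSP101 and HSP90.1 differed by 1.58 and 1.66, the touch gene TCH2 by 2.37 (VG 0.76, BO -1.61) and SKU5, the gene mutated in 6 of the 12 BO libraries, by 0.781.

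Among called genes with a symbol in the reference, the metallothionein gene MT1A had the highest fitted difference, 9.37 (limma adjusted p = 0.00366), and is uncertain. It was listed at 0 in 4 of the 6 BO flight libraries and stood between 17783 and 25952 FPKM in every VG library. In the reference annotation all its 50-base words occur in AT1G07590, which overlaps it on the same strand.

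Genes named for their small p at VG without a call, or after their values were seen, also differed; since most were chosen by their VG effect, the difference is not independent of that choice. With the VG effect lower, the differences were -2.54 for BT1, -2.52 for ORA59, -2.05 for AT1G11185, -1.86 for AT4G29905, -1.47 for AT5G57887, -1.27 for AT5G40590, -1.12 for AT1G15670 and -1.12 for ERS1. With the VG effect higher, they were 1.05 for AT4G27840, 1.59 for AT3G13404, 1.97 for AT4G29610, 2.13 for ABCI21 and 2.27 for FD1. For AT2G05230 (-3.11), AT1G61280 (-1.15) and AT3G06895 (2.13), each listed at 0 in whole groups, the fitted difference depends on the pseudocount. The limma adjusted p of these genes ran from 5.85e-06 (AT1G11185) to 0.0478 (AT3G13404).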

How the results depend on the processing

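The count of 6 genes in the shared effect was 3 with a pseudocount of 0.1, 3 with no filter, 2 with no trend, 2 with the replicate block and 3 without the 2 flight libraries that stood apart, the last chosen after seeing the data; Col-0 alone gave 1 and WS alone gave 1. The interaction count of 0 was 1 with a pseudocount of 0.1 (AT1G61280) and 2 in the fit of 24 libraries (AT1G61280 and AT3G06895). Leaving out 1 library at a time gave 2 to 7 genes in the shared effect, 0 to 2 in the interaction and 2460 to 3769 in the difference of VG and BO effects, which was 2408 without the 2 libraries. No called change turned its direction under the alternatives tried, and a gene higher in flight was called under 4 of the 22. Over all tested genes, same-numbered flight and ground libraries did not deviate together (r of -0.044 to 0.044 over the 6 pairs). The replicate numbers were therefore not taken to pair libraries. For BT1 and the starvation list, replicate 2 was nonetheless the lowest of its group in all 4 groups. With the block, the 2 called genes were EBF2 and BT1 (limma adjusted p = 0.0132 for BT1). The cause of these shifts was not tested. Beside EBF2, the called genes kept their call in 18 of 20 (AT4G35430), 13 of 22 (AT4G26130), 8 of 22 (SNRK2.9), 7 of 22 (AT5G06570) and 3 of 22 (AT4G23510) alternatives. Low genes are limited most, since the depth behind a value near 1 FPKM is unknown.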
